A study of Homo sapiens with 12 samples.

Results

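Keratins, vimentin and nestin are intermediate filament proteins, and their transcripts were followed here in 2 human lung cancer cell lines. The genes were KRT7, KRT8, KRT18, KRT19, KRT80, KRT81, VIM and NES, each taken from a probe set whose annotation names that gene alone, the brightest over 12 arrays where a gene had several. Of the 8 genes, 7 had such a probe set and all 7 passed the filter on dim probe sets, among 16939 genes tested. KRT81, a type II keratin of hair, had none and is not analysed here. KRT18 had 2 such probe sets, and each of the others had 1.

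The H3R and H0R groups are HTB56 cells, a line also known as Calu-6, after 3 rounds and 0 rounds of selection in mice for growth in the lung after injection into a vein. The A3R and A0R groups are A549 lung adenocarcinoma cells after 3 and 0 rounds. Each group had 3 arrays, and every sample is labelled as untreated with regard to 5-azacytidine, a drug that inhibits DNA methylation. Nothing in the labels tells whether the replicates were separate cultures, or how many animals or clones gave rise to a selected line, so a p-value measures only the spread between these arrays.

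Intermediate filaments are rope-like fibres of the cytoplasm that give a cell mechanical strength. Keratin filaments of epithelial cells assemble only from pairs of a type I and a type II keratin. KRT8 and KRT18 form the basic pair of simple epithelia such as that lining the lung, and KRT7 and KRT19 are added in ducts and airways and in most lung adenocarcinomas. Vimentin, a type III protein, forms the filaments of mesenchymal cells and of many cultured tumour cells, and nestin, a protein of progenitor cells, assembles together with vimentin.

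VIM and NES were the members with more transcript in HTB56 than in A549, and the 250 bases before their annotated starts are shown because these genes differed between the lines in the direction opposite to the simple-epithelium keratins. Capitals mark matches to the GC box (GGGCGG, either strand). The sequences are from RefSeq (GRCh38.p14), at chr10:17227991-17228240 on the plus strand for VIM and at chr1:156677408-156677657 on the minus strand for NES, each printed 5′ to 3′ along its gene.
VIM: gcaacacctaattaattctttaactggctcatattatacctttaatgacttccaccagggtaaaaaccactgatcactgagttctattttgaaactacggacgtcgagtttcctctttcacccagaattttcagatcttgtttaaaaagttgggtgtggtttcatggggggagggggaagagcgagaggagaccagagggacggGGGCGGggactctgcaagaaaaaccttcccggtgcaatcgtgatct
NES: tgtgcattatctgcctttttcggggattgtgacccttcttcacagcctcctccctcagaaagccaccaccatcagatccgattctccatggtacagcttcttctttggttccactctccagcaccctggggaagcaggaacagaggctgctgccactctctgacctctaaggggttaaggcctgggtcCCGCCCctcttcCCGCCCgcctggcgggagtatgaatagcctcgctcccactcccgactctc
VIM held 1 GC box, 46 to 41 bases before the start, and NES held 2, at 62 to 57 and at 50 to 45 bases before it. Windows of the same length held a GC box in 42.3% of 27305 promoters. Neither window matched a TATA box (TATAAA, in 11.1% of promoters), an AP-1 site (TGANTCA, 6.6%), an E-box of ZEB and Snail factors (CAGGTG, 17.5%) or a CCAAT box (CCAAT, 33.0%), on either strand. The GC content was 46.0% for VIM and 58.0% for NES. KRT8, the remaining member with a promoter among those 27305, matched none of the 5 motifs at chr12:52926470-52926719 on the minus strand. Only 1 window per gene was searched, and other starts of VIM, NES and KRT8 were not examined.

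All levels below are log2 signals made by RMA, a method that corrects, normalizes and summarises the probes of a set, and a difference of 1 is a 2-fold change. A gene is called at a limma adjusted p below 0.05 over the 16939 genes. Array medians lay between 5.55 and 5.67, and arrays of 1 group correlated with r between 0.988 and 0.995 across probe sets. A0R replicate 2 stood apart. Over 18 genes bright on every HTB56 array and dim on every A3R array, its median deviation from the middle A549 value was 0.84, and that of the other 5 A549 arrays was -0.17 to 0.03. The epithelial markers EPCAM, CDH1, CLDN3, CLDN4, CLDN7 and ELF3 averaged 5.71 to 5.85 per array in H3R, 5.45 to 5.68 in H0R, 7.14 to 7.30 in A3R and 7.26 to 7.33 in A0R. CDH1, the E-cadherin gene, was near background in HTB56 (4.50 in H3R and 4.55 in H0R, against 8.68 in A3R and 9.53 in A0R). The 6 markers did not all differ alike. In H0R against A0R 3 were called lower and 1 higher, beside 45.2% of all genes called. The higher one was CLDN4 (0.42), a call lost on leaving out any 1 of 6 arrays. In H3R against A3R 3 were lower and 0 higher, beside 44.6% of all genes. Of 6 lung epithelial markers tested, none lay above the array median in H3R or H0R, 2 did in A3R and 1 in A0R, and NKX2-1, the lung lineage factor, was between 4.14 and 4.27 in all 4 groups.

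KRT7 encodes the type II keratin that is used in pathology to mark lung adenocarcinoma. Its signal was 9.10, 9.02 and 8.60 on the H3R arrays, 9.87, 9.94 and 9.62 on the H0R arrays, 11.82, 11.67 and 11.80 on the A3R arrays and 12.02, 11.73 and 11.87 on the A0R arrays. The HTB56 arrays all lay below the A549 arrays, and the selected HTB56 arrays all lay below the unselected ones. KRT7 was 1.88-fold lower in H3R than in H0R (log2 change -0.91, SE 0.14, limma adjusted p = 0.000278), and lower in 3 of 3 pairs with the same replicate number. In A549 the arrays overlapped, and the log2 change from selection was -0.11 (95% interval -0.40 to 0.19, limma adjusted p = 0.91). As the arrays measure bulk RNA, fewer cells that express a gene and less transcript in each cell cannot be told apart, here or for any gene below.

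KRT8 is the type II member of the simple-epithelium pair. It measured 11.57, 11.44 and 11.35 in H3R, 11.14, 11.36 and 11.09 in H0R, 13.05, 13.05 and 13.00 in A3R and 13.36, 13.20 and 13.21 in A0R. The 2 lines were far apart and the selected and unselected arrays close together, overlapping in HTB56 and not in A549. The log2 change was 0.26 in HTB56 (95% interval 0.04 to 0.48, limma adjusted p = 0.105) and -0.22 in A549 (95% interval -0.44 to -0.0034, limma adjusted p = 0.492), so neither was called. With the replicate number as a block in the fit the HTB56 change was called (limma adjusted p = 0.0434).

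KRT80, a type II keratin of many epithelia, measured 7.95, 7.85 and 7.71 in H3R, 7.20, 7.12 and 6.90 in H0R, 7.63, 7.71 and 8.0015 in A3R and 7.64, 7.22 and 7.71 in A0R. Every H3R array lay above every H0R array and within the range of the A3R arrays. KRT80 was 1.70-fold higher in H3R than in H0R (log2 change 0.76, SE 0.14, limma adjusted p = 0.00153), by 0.75, 0.74 and 0.81 in the pairs of replicates 1, 2 and 3. In A549 the change was 0.26 (95% interval -0.05 to 0.57, limma adjusted p = 0.63) and the arrays overlapped.

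KRT18, the type I partner of KRT8, measured 12.62, 12.64 and 12.67 in H3R, 12.79, 12.60 and 12.66 in H0R, 13.45, 13.46 and 13.49 in A3R and 13.57, 13.44 and 13.64 in A0R. Selected and unselected arrays overlapped in both lines, and the A549 arrays all lay above the HTB56 arrays. The log2 change with selection was -0.04 in HTB56 (95% interval -0.24 to 0.16) and -0.08 in A549 (95% interval -0.28 to 0.12), with limma adjusted p of 0.843 and 0.888. The other KRT18 probe set gave -0.03 and -0.12 for these changes. KRT8 and KRT18 are neighbours with no protein-coding gene between them, as are KRT80 and KRT7. The gene table holds 52 pseudogenes named for KRT8 and 68 named for KRT18, and how far these near copies enter the probe signals was not tested.

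KRT19, a type I keratin of simple epithelia, measured 6.01, 6.09 and 6.56 in H3R, 6.32, 6.73 and 6.50 in H0R, 10.03, 10.01 and 9.84 in A3R and 8.87, 8.79 and 8.81 in A0R. All 3 A3R arrays stood above all A0R arrays, while H3R and H0R overlapped. KRT19 was 2.20-fold higher in A3R than in A0R (log2 change 1.14, SE 0.14, 95% interval 0.83 to 1.44, limma adjusted p = 0.000461), by 1.16, 1.23 and 1.02 in the 3 numbered pairs. Without A0R replicate 2 the change was 1.12 (limma adjusted p = 0.00342). In HTB56 the change was -0.30 (95% interval -0.60 to 0.01, limma adjusted p = 0.184), with 2 of 3 pairs lower. Without H3R replicate 3, the highest of its group, it was -0.46 and was called (limma adjusted p = 0.0225).

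VIM, the vimentin gene, measured 12.13, 12.15 and 12.14 in H3R, 11.8953, 12.0057 and 11.9995 in H0R, 11.31, 11.23 and 11.30 in A3R and 11.46, 11.25 and 11.33 in A0R. Vimentin transcript was therefore bright in both lines, all HTB56 arrays lay above all A549 arrays, and the H3R arrays lay just above the H0R arrays. The change with selection was 0.17 in HTB56 (95% interval -0.02 to 0.37, limma adjusted p = 0.241) and -0.07 in A549 (95% interval -0.26 to 0.13, limma adjusted p = 0.919), and neither was called.

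NES, the nestin gene, measured 7.32, 7.53 and 7.42 in H3R, 6.75, 7.06 and 6.96 in H0R, 5.44, 5.85 and 5.78 in A3R and 5.29, 6.11 and 5.53 in A0R. All HTB56 arrays lay above all A549 arrays, and A0R replicate 2, the array that stood apart, was the highest of the 6 A549 arrays. The H3R arrays did not overlap the H0R arrays, and the change was 0.50 (95% interval 0.12 to 0.88, limma adjusted p = 0.0628), short of the threshold. NES was higher in replicate 2 than its group mean in 4 of 4 groups, and the 3 numbered pairs differed by 0.57, 0.47 and 0.46. With the replicate block the change in HTB56 was called (limma adjusted p = 0.00609), as it was without A0R replicate 1 (0.0375) or A0R replicate 2 (0.0158), which enter through the shared estimate of the spread. In A549 the change was 0.04 (95% interval -0.34 to 0.42, limma adjusted p = 0.982) and took either sign as single arrays were left out.

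**Figure D1:**
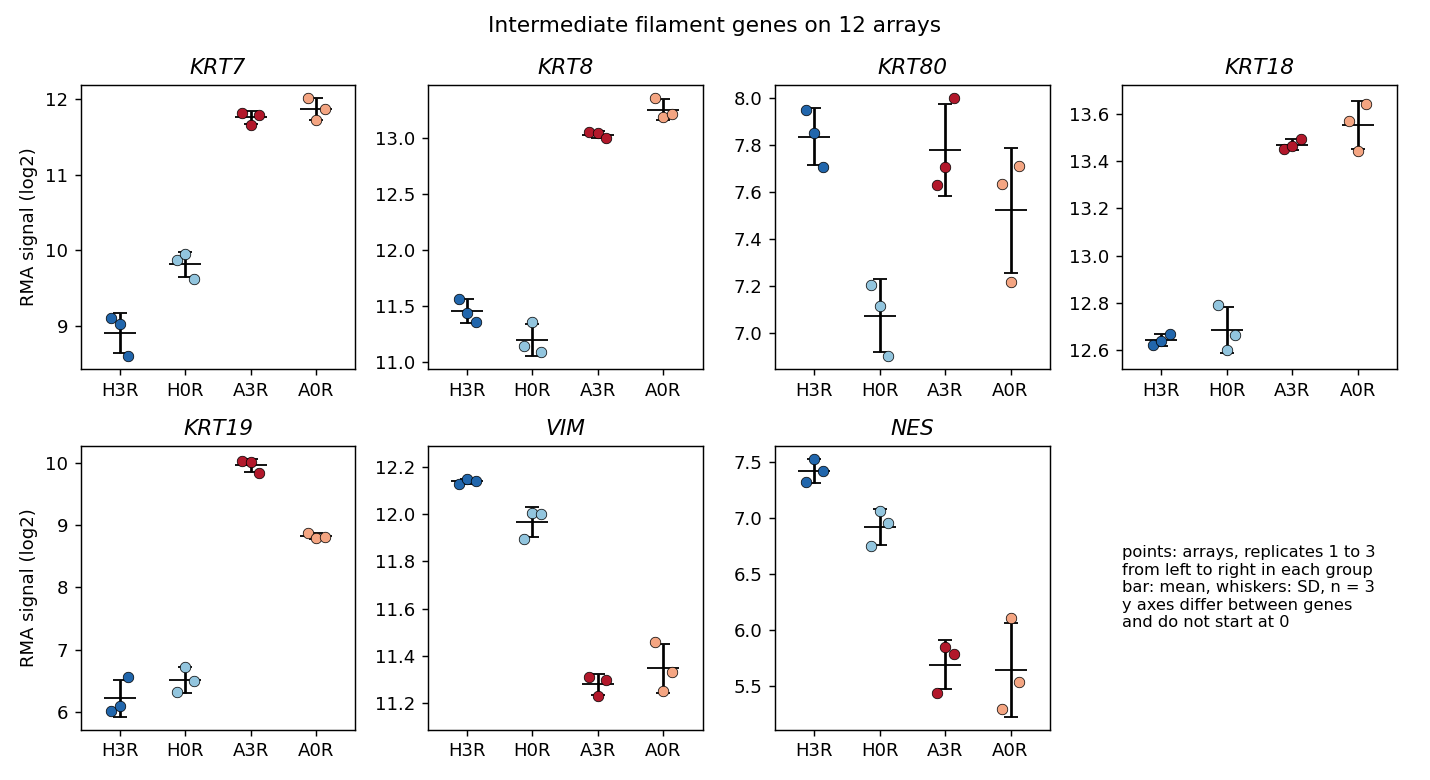
Log2 RMA signal of the 7 members on each of the 12 arrays (points, replicates 1 to 3 from left to right in each group), with the group mean and SD (n = 3) as bar and whiskers, on y axes that differ between genes and do not start at 0. KRT7, KRT8, KRT18 and KRT19 lie lower in both HTB56 groups than in both A549 groups and VIM and NES lie higher. By limma, KRT7 and KRT80 were called between H3R and H0R, and KRT19 between A3R and A0R. The points also do not overlap between H3R and H0R for VIM and NES, or between A3R and A0R for KRT8, which were not called.

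Taken over the members, selection in HTB56 moved 2 of 7 genes past the threshold, KRT80 higher and KRT7 lower, where 19.5% of all genes were called, 8.57% higher and 10.9% lower. With the replicate block KRT8 and NES were also called, which makes 4 of 7 beside 28% of all genes. The H3R and H0R arrays did not overlap for 4 members, KRT7, KRT80, VIM and NES, beside 34.3% of all genes. Selection in A549 moved 1 of 7 members, KRT19, with 1.75% of all genes called, 0.945% higher and 0.809% lower. With the replicate block KRT19 was again the 1 member called, beside 3.32% of all genes. The arrays of A3R and A0R did not overlap for KRT19 and KRT8, beside 12.7% of all genes.

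The change with selection was set against itself between the lines with an interaction term, the change in HTB56 minus the change in A549. It differed for 3 of 7 members, KRT19 (difference -1.43, SE 0.20, limma adjusted p = 0.000256), KRT7 (-0.80, SE 0.19, adjusted p = 0.0148) and KRT8 (0.48, SE 0.15, adjusted p = 0.0452), beside 11.8% of all genes, 5.22% higher and 6.58% lower. For KRT8 the changes had opposite signs, and the call was lost on leaving out any 1 of 10 arrays (adjusted p 0.0572 to 0.111), holding only without H3R replicate 3 or H0R replicate 2. With the block the same 3 members were called, beside 20.4% of all genes. Without A0R replicate 2 the difference was -1.41 for KRT19 and -0.73 for KRT7 (limma adjusted p = 0.00103 and 0.041). KRT80 rose in HTB56, but its change was not shown to differ from that in A549 (difference 0.51, SE 0.20, limma adjusted p = 0.136), a difference that was called without A0R replicate 2 (0.66, adjusted p = 0.0392). The differences for NES (0.46, adjusted p = 0.302), VIM (0.24, adjusted p = 0.292) and KRT18 (0.04, adjusted p = 0.912) were not called. The other KRT18 probe set gave 0.09.

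**Figure D2:**
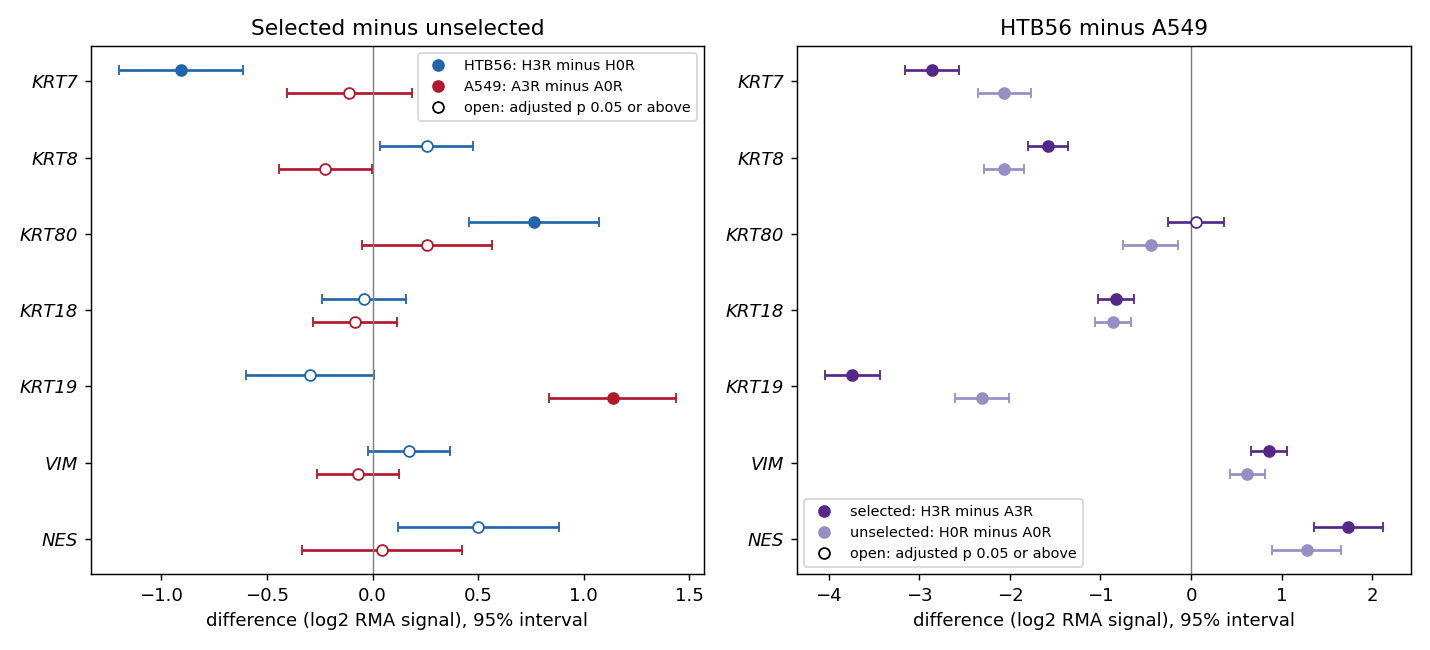
Differences of group means for each member on the log2 scale (points) with 95% intervals (bars), selected minus unselected within each line on the left and HTB56 minus A549 on the right, filled where the limma adjusted p is below 0.05. On the left KRT7 (-0.91) and KRT80 (0.76) are called in HTB56 and KRT19 (1.14) in A549, and on the right KRT80 between the selected lines is the 1 open point.

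Between the lines the simple-epithelium keratins were lower in HTB56 and vimentin and nestin were higher, both after selection and before it. The unselected lines differed for 7 of 7 members, 5 lower and 2 higher in H0R, beside 45.2% of all genes called, 24.9% higher and 20.3% lower, and their arrays did not overlap for 7 members, beside 53.2% of all genes. KRT19 was 4.95-fold lower in H0R than in A0R (log2 difference -2.31, SE 0.14, limma adjusted p = 4.31e-09), KRT7 4.17-fold (-2.06, SE 0.14), KRT8 4.18-fold (-2.06, SE 0.10) and KRT18 1.82-fold (-0.87, SE 0.09), with the other KRT18 probe set at -0.68. KRT80 was 1.36-fold lower (-0.45, SE 0.14, limma adjusted p = 0.0191), a call lost without A0R replicate 1 (0.0708), A0R replicate 3 (0.0848) or H0R replicate 3 (0.0813). NES was 2.42-fold higher in H0R (1.28, SE 0.18, limma adjusted p = 2.76e-05, and 1.51 without A0R replicate 2) and VIM 1.54-fold higher (0.62, SE 0.09, limma adjusted p = 4.88e-05).

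The selected lines differed for 6 of 7 members, 4 lower and 2 higher in H3R, beside 44.6% of all genes called, 24.9% higher and 19.7% lower. Their arrays did not overlap for the same 6 members, beside 51.6% of all genes. KRT19 was 13.4-fold lower in H3R than in A3R (log2 difference -3.74, SE 0.14, limma adjusted p = 3.2e-11), KRT7 7.26-fold (-2.86, SE 0.14), KRT8 2.99-fold (-1.58, SE 0.10) and KRT18 1.77-fold (-0.83, SE 0.09), with the other KRT18 probe set at -0.59. NES was 3.33-fold higher (1.73, SE 0.18) and VIM 1.81-fold higher (0.86, SE 0.09). KRT80 did not differ beyond the spread (0.06, 95% interval -0.25 to 0.37, limma adjusted p = 0.786), and its sign turned under cyclic loess scaling (-0.05). The comparisons of the lines share their arrays with the comparisons by selection, so the gap in KRT19 and KRT7 is wider, and that in KRT8 narrower, between the selected lines by the interaction values given above.

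In order of level, KRT7 ran A0R, A3R, H0R, H3R, with no difference beyond the spread between A0R and A3R. KRT19 ran A3R, A0R, H0R, H3R, with H0R and H3R not separated. KRT8, KRT18, VIM and NES formed a pair of levels by line, and the fit without the replicate block did not separate the selected and unselected groups of a line at the threshold. With the block, H3R lay above H0R for KRT8 (limma adjusted p = 0.0434) and NES (0.00609), each in 3 of 3 pairs. KRT80 ran H3R, A3R, A0R, H0R, with H3R not separated from A3R nor A3R from A0R.

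The genes whose 12-array profile lay closest to a member's were found by the root mean square difference of log2 signals after each gene was centred on its own mean, for the 4 members with the widest range of group means. For KRT19 they were QKI (0.29), LIFR (0.30) and C1R (0.31), for KRT7 MID1 (0.17), CLMN (0.20) and ABTB3 (0.22), for KRT8 IMPA2 (0.10), PCBD1 (0.12) and HFE (0.14), and for NES HS6ST3 (0.21), CCDC102B (0.22) and GRIK4 (0.23). MID1, for example, averaged 8.003 in H3R, 8.67 in H0R, 10.78 in A3R and 10.69 in A0R, and QKI 3.80, 3.88, 7.01 and 6.50 in the same order of groups. All 3 genes nearest KRT19 differed less between A3R and A0R than KRT19 did, with LIFR at 7.04 in A3R and 6.34 in A0R and C1R at 8.57 in A3R and 7.76 in A0R.

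Most other keratins that were tested were dim. Of 49 other keratin genes listed, 40 were tested, with group means between 3.48 and 7.25, and 33 of them lay above the array median in no group. KRT14, KRT33A and KRT4 lay above it in all 4. A probe set naming the gene alone was present for 26 of 27 type I and 17 of 22 type II keratins listed, so the level of the others is not known here. In H3R against H0R 8.57% of all genes were called higher and 10.9% lower. Of 23 type I keratins, 1 was called higher and 0 lower in H3R than in H0R (median log2 change 0.06, all genes 0.02). It was KRT23, at 3.97 ± 0.10 in H3R and 3.66 ± 0.13 in H0R (SD, n = 3 each, log2 change 0.31, limma adjusted p = 0.0436), a call lost on leaving out any 1 of 7 arrays, and kept without A3R replicate 1 or 3, A0R replicate 3, H3R replicate 2 or H0R replicate 3. With the block 2 were higher. Limma called 0 type I keratins in A549, where 2 had an unadjusted p below 0.05, and 0 in the interaction, where the block gave 2 higher.

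Over all genes limma called 19.5% with selection in HTB56 and 1.75% in A549. Of 17 type II keratins, limma called 0 in HTB56 (1 at an unadjusted p below 0.05, median 0.15) and 1 lower in A549 (median -0.02, all genes -0.01). That was KRT4, a keratin of moist stratified epithelium, at 6.36 ± 0.02 in A3R and 7.25 ± 0.34 in A0R (log2 change -0.88, SE 0.16, limma adjusted p = 0.00967). KRT4 stood at 5.77 ± 0.29 in H3R and 5.76 ± 0.09 in H0R, and the difference of the changes was called (0.90, SE 0.23, limma adjusted p = 0.0188) except without H3R replicate 2 (0.0558). KRT4 was also lower in H3R than in A3R (-0.59) and in H0R than in A0R (-1.49).

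Between the lines, 0 of the 23 type I and 17 type II keratins were called higher in HTB56, beside 24.9% of all genes in each comparison. The lower counts below stand beside 19.7% of all genes called lower in H3R against A3R and 20.3% in H0R against A0R. Neither list had a larger share called lower than all genes. In H3R against A3R 2 type I keratins were lower, KRT15 (-0.50) and KRT10 (-0.30), and 3 type II keratins, KRT4, KRT85 (-0.48) and KRT73 (-0.37), with medians of -0.06 and -0.03 beside 0.01 for all genes. The KRT10 call was lost without A3R replicate 2 or 3 or H3R replicate 1 or 2 (limma adjusted p 0.0632 to 0.127) and the KRT73 call without any 1 of 6 arrays, A3R replicate 1 or 3, any H3R array or H0R replicate 2 (0.0537 to 0.203, log2 difference at its smallest -0.24). In H0R against A0R 2 type I keratins were lower, KRT10 (-0.54) and KRT23 (-0.43), and 3 type II keratins, KRT4, KRT83 (-0.46) and KRT73 (-0.44), with medians of -0.05 and -0.18 beside -0.01 for all genes. The KRT83 call was lost without A0R replicate 3 or H0R replicate 1 or 2 (0.0503 to 0.0897, log2 difference at its smallest -0.30) and the KRT73 call without A0R replicate 2 or 3 or H0R replicate 1 (0.0593 to 0.0896). With the block the type I count was 4 in each of these comparisons, and the type II count in H0R against A0R was 5. The share of all genes called with the block is not given here for the line comparisons.

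Among 13 other intermediate filament genes, INA and SYNM showed the widest gaps between the lines. INA, which encodes the neurofilament protein alpha-internexin, stood at 4.53 ± 0.13 in H3R, 4.54 ± 0.19 in H0R, 9.52 ± 0.18 in A3R and 9.32 ± 0.16 in A0R (SD, n = 3 each), so it was lower in HTB56 by log2 differences of -4.99 between the selected lines and -4.78 between the unselected ones. SYNM, which encodes synemin, a partner of vimentin and desmin filaments, was lower by -1.92 and -2.15. The B-type nuclear lamin genes LMNB1 (0.71 and 0.75) and LMNB2 (0.69 and 0.86) were higher in HTB56. The list counted 2 higher and 2 lower in H3R against A3R and 2 higher and 3 lower in H0R against A0R, with medians of -0.05 and -0.27, and the block gave 2 higher and 7 lower for the unselected lines. Without the block, 44.6% of all genes were called in H3R against A3R and 45.2% in H0R against A0R.

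BFSP1, which encodes filensin, a filament protein of the eye lens, was the 1 gene of that list called with selection in HTB56, at 6.12 ± 0.09 in H3R and 4.87 ± 0.20 in H0R (log2 change 1.25, SE 0.12, limma adjusted p = 5.76e-06). It stood at 5.95 ± 0.11 in A3R and 5.97 ± 0.18 in A0R, the difference of the changes was 1.27 (SE 0.18, limma adjusted p = 0.000248), and H0R was lower than A0R by -1.10. Over all genes 19.5% were called with selection in HTB56 and 1.75% in A549. The list's median change was 0.07 in HTB56 and -0.05 in A549, where limma called 0 genes of the list and 0 had an unadjusted p below 0.05. With the block 1 was higher and 1 lower in HTB56.

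**Figure D3:**
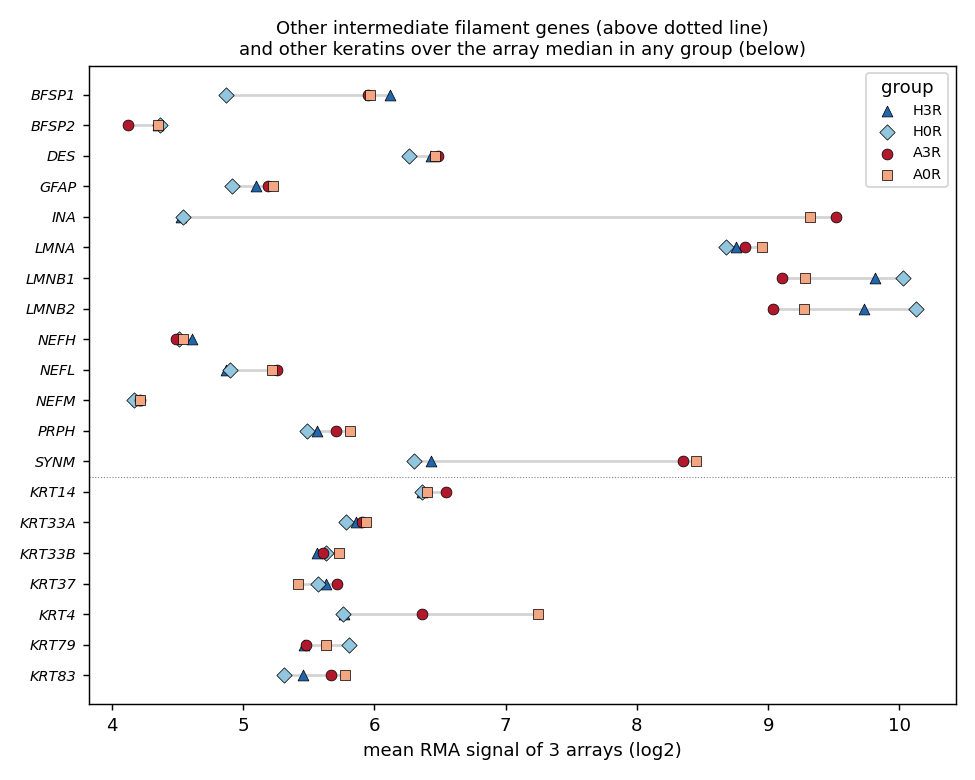
Mean log2 RMA signal of 3 arrays per group (symbols) for the 13 other intermediate filament genes, above the dotted line, and the 7 other keratins that exceed the array median in any group, below it, with a grey line spanning the 4 groups. INA and SYNM lie lower in both HTB56 groups, BFSP1 is lowest in H0R, and KRT4 is highest in A0R.

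Keratin filaments are anchored at desmosomes and hemidesmosomes by linker proteins. In a wider list of filament linkers and desmosomal anchors, not all of them keratin anchors, some genes rose with selection in HTB56. Of 27 tested, 6 were higher and 3 lower in H3R than in H0R (median 0.05, all genes 0.02), beside 8.57% of all genes called higher and 10.9% lower, so the number of lower calls was near that of all genes. The DST call was lost on leaving out any 1 of 7 arrays (limma adjusted p 0.0529 to 0.169), the DSC2 call any 1 of 3 (0.0827 to 0.0996) and the TCHP call without H0R replicate 2 (0.0611). DSP, which encodes desmoplakin, the protein that ties keratins to the desmosome, was 6.54 ± 0.09 in H3R and 4.30 ± 0.15 in H0R (log2 change 2.24, SE 0.18, limma adjusted p = 8.66e-07). The desmosomal cadherin gene DSG2 changed by 1.95 (SE 0.10), the plakoglobin gene JUP by 1.37 (SE 0.18), and DTNA, which encodes dystrobrevin alpha, by -1.003 (SE 0.11). DTNA was below the array median in every group, at 4.21 in H3R, 5.21 in H0R, 3.62 in A3R and 3.82 in A0R. In A549 limma called 0 higher and 1 lower (median -0.05, 4 at an unadjusted p below 0.05), beside 1.75% of all genes called, the desmosomal cadherin gene DSC3 (-0.70, SE 0.15, adjusted p = 0.0294), a call lost without any A3R array or without A0R replicate 1 or 2 (0.071 to 0.141).

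The change differed between the lines for 6 of the 27, 4 more positive and 2 more negative in HTB56 (median 0.17, all genes 0.02), beside 11.8% of all genes called. The differences were 2.75 for DSP (SE 0.26), 1.98 for DSG2 (SE 0.14), 1.02 for JUP (SE 0.26) and -0.81 for DTNA (SE 0.16). The other two calls were less stable. That of DST, which encodes dystonin (-0.79, SE 0.23, limma adjusted p = 0.0376), was lost on leaving out any 1 of 8 arrays (0.0552 to 0.089), holding without A3R replicate 1 or 3, A0R replicate 2 or H3R replicate 2. That of DSC3 (0.74, SE 0.21, limma adjusted p = 0.0366) was lost on leaving out any 1 of 9 arrays (0.0531 to 0.0921), holding without A0R replicate 3, H3R replicate 2 or H0R replicate 3. DSC3 averaged 3.53 in H3R and 3.48 in H0R, near the 20th percentile of the array, and 5.17 in A3R and 5.86 in A0R. Its positive difference therefore came mainly from the lower signal in A3R than in A0R. The low HTB56 signal also limits its differences between the lines, given below. Over the 12 fits that each left out 1 array, 3 to 5 genes were more positive and 1 to 2 more negative. In H3R against A3R 10 linker genes were lower and 3 higher (median -0.10), beside 44.6% of all genes called, 19.7% lower and 24.9% higher. In H0R against A0R 11 were lower and 4 higher (median -0.29), beside 45.2% of all genes called, 20.3% lower and 24.9% higher. The share of linker genes called in H3R against A3R was therefore near that of all genes. ITGB4, the hemidesmosomal integrin beta 4 gene, differed by -3.70 and -3.41, JUP by -2.27 and -3.29 and DSC3 by -1.64 and -2.38. DSP differed by -4.26 between the unselected lines, and DSC2, a further desmosomal cadherin gene, by -1.59 between the selected ones.

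**Figure D4:**
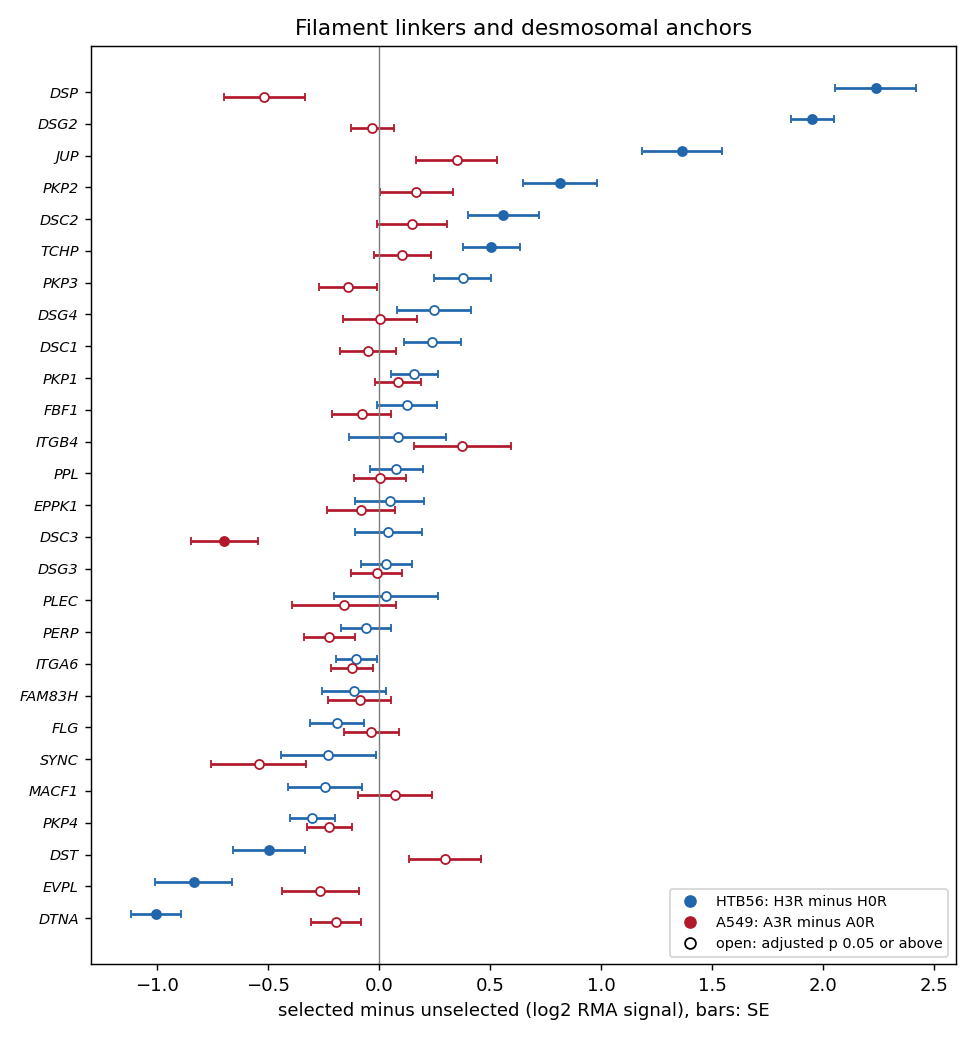
Log2 change with selection (points, bars SE) of the 27 filament linker and desmosome genes tested, in HTB56 above and A549 below for each gene, filled where the limma adjusted p is below 0.05. DSP, DSG2 and JUP lie furthest to the right in HTB56, and DTNA furthest to the left.

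Transcription factors known for epithelial or mesenchymal programmes were listed as neighbours of keratin and vimentin expression. Of 13 epithelial factors, 3 were higher and 0 lower in H3R than in H0R (median 0.11, with 8.57% of all genes called higher), KLF4 (0.80, SE 0.15), FOXA2 (0.65, SE 0.10) and KLF5 (0.37, SE 0.10), the last lost without H3R replicate 3 or H0R replicate 1 or 3 (limma adjusted p 0.0562 to 0.0649). Limma called 0 in A549 (median 0.08, 2 at an unadjusted p below 0.05). The interaction called the same 3, KLF4 at 0.75 (SE 0.22), KLF5 at 0.63 (SE 0.14) and FOXA2 at 0.58 (SE 0.14), with a median of 0.06. Over all genes it called 11.8%. The KLF4 difference kept its call only without A3R replicate 3, A0R replicate 2 or H0R replicate 3, and was otherwise lost at adjusted p from 0.0524 to 0.101. Between the lines 4 were lower and 2 higher in H3R and 5 lower and 0 higher in H0R, with medians of -0.12 and -0.13, where 44.6% and 45.2% of all genes were called. EHF, an epithelial ETS factor, differed by -4.35 and -3.85, ELF3 by -3.56 and -3.68 and FOXA1 by -1.28 and -1.33, and KLF5 by -1.41 between the unselected lines, while KLF4 was higher in H3R than in A3R (1.06).

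Of 10 mesenchymal factors, 2 were higher and 1 lower in H3R than in H0R (median 0.08, with 19.5% of all genes called), SNAI2, which encodes Slug, at 1.17 (SE 0.24, limma adjusted p = 0.00339), ZEB1 at 0.46 and SNAI1 at -0.42. The ZEB1 call was lost without H3R replicate 3 or H0R replicate 1 (0.0511 to 0.0569) and the SNAI1 call without H3R replicate 1 or 2 or H0R replicate 1 or 2 (0.0566 to 0.107). Limma called 0 in A549 (median 0.10, 2 at an unadjusted p below 0.05), where 1.75% of all genes were called. The interaction called SNAI2 (1.19, SE 0.35, limma adjusted p = 0.0368), lost on leaving out any 1 of 7 arrays (0.0535 to 0.0966) and kept without A3R replicate 3, A0R replicate 1 or 3 or H0R replicate 1 or 3, and ZEB2 (-0.76, SE 0.17), with a median of -0.02, and the block gave 2 higher and 2 lower. Between the lines 5 were higher and 2 lower in H3R and 6 higher and 2 lower in H0R, with medians of 0.37 and 0.63. SNAI2 was higher in HTB56 by 4.72 and 3.53, PRRX1 by 4.06 and 3.84 and TCF4 by 3.62 and 4.25, ZEB1 by 1.20 between the selected lines and ZEB2 by 1.52 between the unselected ones.

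Markers of other cell types moved beside these changes in HTB56, and their part in the results for KRT7, KRT80 and the linker genes was not tested. The counts below stand beside 8.57% of all genes called higher and 10.9% lower with selection in HTB56. In A549 the share of all genes called was 1.75%. Of 7 neuroendocrine markers 6 were lower in H3R than in H0R, with array means of 5.63 to 5.74 in H3R and 8.48 to 8.57 in H0R (5.03 to 5.06 in A3R and 5.00 to 5.06 in A0R). Of 8 fibroblast markers 4 were higher, COL1A1, COL3A1, LUM and PDGFRA, with array means of 6.27 to 6.40 in H3R and 5.53 to 5.84 in H0R (5.35 to 5.51 in A3R and 5.15 to 5.36 in A0R), while DCN, POSTN and FAP did not pass the filter on dim probe sets. Of 9 leukocyte markers LYZ and CD68 were higher, with array means of 5.07 to 5.30 in H3R and 4.87 to 4.91 in H0R, and PTPRC did not pass the filter. Limma called 0 of 7 endothelial markers with selection in either line, where 1 in HTB56 and 0 in A549 had an unadjusted p below 0.05, and their array means lay between 4.50 and 4.73 in all groups. Of the 6 epithelial markers, limma called 1 higher and 0 lower in H3R than in H0R. In A549 limma called 0 fibroblast, 0 leukocyte and 0 neuroendocrine markers (1, 1 and 2 at an unadjusted p below 0.05), and 1 epithelial marker was higher, CLDN4 (1.03), and 1 lower, CDH1 (-0.85). Of the 6 lung epithelial markers limma called 0 in either line (unadjusted p below 0.05 for 0 in HTB56 and 1 in A549). With the replicate block 1 fibroblast and 1 lung epithelial marker were higher and 1 leukocyte marker lower in A549, beside 3.32% of all genes called.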

How the data were processed

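Gene expression was measured in 12 samples on Affymetrix whole-transcript arrays. Per the submitters' processing notes, the authors used RMA and Affymetrix Expression Console, and the deposited values are on a log2 scale. Tool versions and genome build were not given in the sources used here. The method applies background correction and quantile normalization, so a dim gene's differences are compressed and a shift of all transcripts would be removed. The number of arrays limits the precision.

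Of 33297 probe sets, 19460 had 1 gene symbol in the platform annotation, 1754 had several and 12083 were not listed, and 19429 were matched to RefSeq genes (GRCh38.p14) by Entrez identifier. A probe set listed for KRT18 together with a microRNA gene was not used. Probe sets above the 20th percentile of the array (3.48 on average) on at least 3 of 12 arrays were kept, 1 per gene by the highest mean.

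One fit of 4 group means in limma 3.58.1 (R 4.3.3, lmFit and eBayes, two-sided) gave the comparisons H3R with H0R, A3R with A0R, the difference of these changes, H0R with A0R and H3R with A3R. Benjamini-Hochberg adjustment ran over all 16939 genes, with a threshold of 0.05, and the procedure was tested on simulated data. The simulated arrays were independent and held no line differences, so that test does not cover the pairing by replicate number described below. Python 3.11.15, pandas 2.3.3 and matplotlib 3.10.9 were used for tables and figures. The members, the 6 gene lists, the marker lists and the tests were chosen with earlier results of these data known. Besides the members, the called genes with the largest change in each list and comparison, up to 4, are named, along with marker genes and LMNB1 between the unselected lines, which were chosen after their values were seen.

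The labels number the replicates alike in every group without saying why. Departures from group means correlated at 0.16 to 0.549 between arrays of the same number and at -0.417 to 0.204 between others, and 12 of 12 arrays lay closest to their own number, so the numbers pair the samples, from the data. Alternatives were the filter, the choice of probe set, median centring and cyclic loess, the replicate block, other eBayes settings, array weights, a fit on the arrays compared, a threshold of 0.01 and leaving out each array. Without scanner files, the background correction and the normalization of probes could not be varied.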

Additional observations from a re-analysis of the deposited data

Results flagged for a closer look

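The change with selection differed between HTB56 and A549, by the interaction term in limma at an adjusted p below 0.05, for 30 of the 152 member, list and marker genes tested, 18 more positive and 12 more negative in HTB56. Over all genes 11.8% were called, 5.22% more positive and 6.58% more negative. The 152 genes were chosen with earlier results of these data known. Each value is the log2 change in HTB56 minus that in A549. Among the members it was -1.43 for KRT19, -0.80 for KRT7 and 0.48 for KRT8. Among other filament genes it was 1.27 for BFSP1 and 0.90 for KRT4. Among the genes of filament linkers and desmosomes it was 2.75 for DSP, 1.98 for DSG2, 1.02 for JUP, 0.74 for DSC3, -0.81 for DTNA and -0.79 for DST. Among transcription factors it was 0.75 for KLF4, 0.63 for KLF5, 0.58 for FOXA2, 1.19 for SNAI2 and -0.76 for ZEB2.

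Among epithelial markers the difference was 1.44 for EPCAM, 0.81 for CDH1 and -0.72 for CLDN4. With selection in A549 CDH1 was called lower and CLDN4 higher, while CDH1 was near background in HTB56. A difference of the changes alone does not give the direction of the change in HTB56. Among fibroblast markers it was 1.56 for COL1A1, 1.15 for COL3A1 and 0.85 for PDGFRA, and among leukocyte markers 1.58 for LYZ and 1.10 for CD68. Among neuroendocrine markers it was -5.05 for SCG3, -3.95 for CHGB, -3.30 for SCG2, -3.10 for CHGA, -2.84 for SYP and -1.91 for NCAM1. Of the 27 called genes that are not members, 8 lost the call when some single array was left out, namely KRT4, DST, DSC3, KLF4, SNAI2, CDH1 (4 arrays, limma adjusted p 0.0503 to 0.0666), CLDN4 (11 arrays, 0.0526 to 0.122) and PDGFRA (9 arrays, 0.0511 to 0.0901). The genes named for a profile like a member's were chosen for that likeness and are not counted here.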

How the results depend on the processing

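Of 763 recomputed values of the 35 member results, 727 kept their direction and their side of the threshold, 16 lost a call, 10 gained one and 10 changed sign. The sign changes were all of values that were not called, for KRT18 in the difference of the changes with array weights (-0.0021), for KRT80 in H3R against A3R with cyclic loess (-0.0467), and on leaving out single arrays. Those ranges were -0.0838 to 0.01004 for KRT18 in HTB56, -0.00498 to 0.0946 for KRT18 in the difference of the changes, -0.0170 to 0.169 for KRT80 in H3R against A3R and -0.13 to 0.28 for NES in A549. The members called in HTB56 numbered 4 with the replicate block and 4 with array weights, and those called in the difference of the changes 1 at a threshold of 0.01.

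Over all genes, the 297 calls in A549 became 179 with only the arrays compared, 562 with the replicate block, 142 at a threshold of 0.01 and 179 to 286 on leaving out 1 array, namely 192 when A3R replicate 2 or A0R replicate 2 was omitted and 179 when A0R replicate 1 was. In HTB56 3298 calls became 2039 at 0.01. The difference of the changes gave 2000 calls, 3458 with the block and 1036 at 0.01. The block changed no other member's call than those of KRT8 and NES in HTB56. The causes were not tested. Changes of about the size of the spread between 3 arrays are not detectable here.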
